A study of Mus musculus with 4 samples.

Results

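The genes described here are the mouse Wnt ligands (Wnt), their Frizzled (Fzd) and LRP receptors, and the proteins that release, block, transmit or read the Wnt signal. They were taken by gene symbol from the protein-coding rows of the deposited count table, which gave 57 genes of 52636 in the table, 22027 of them protein coding. RNA sequencing had been done on sorted cells of the dentate gyrus, at 6 to 7 weeks of age. There were 2 libraries from wild type mice and 2 from their littermates with the genotype Fmr1-/y, hemizygous knockouts of the gene for the RNA-binding protein FMRP, all on a C57BL/6 background. Per the labels 10000 live cells were collected, in a protocol shared by sorts with and without the reporter Dcx-DsRed. The design names the cells positive for it, which marks neuroblasts and immature neurons through doublecortin (Dcx). The labels name neither the knockout allele nor the animals behind each library, so a p-value reflects how far these libraries spread, and part of that spread may be technical.

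Wnt proteins are secreted lipid-modified ligands. Binding to a Frizzled receptor and an LRP co-receptor recruits Dishevelled and stops a destruction complex, built on Axin and containing the kinase GSK3, from marking beta-catenin for degradation. Beta-catenin then enters the nucleus and acts with TCF/LEF factors. In the adult dentate gyrus, Wnt signals from astrocytes are known to promote the formation of new neurons, and FMRP has been reported to bind Gsk3b mRNA in mouse neural progenitors.

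The libraries held 5478224 to 7213759 counts, of which 13045 to 14400 fell on the 57 Wnt pathway genes. Levels of a gene across libraries are in CPM, counts scaled to library size, and paired values are given for replicate 1 and then replicate 2. Fmr1, the targeted gene, lay at 73.1 and 91.6 CPM in the wild type pair and at 43.4 and 29.7 CPM in the knockout pair. The knockout values were the lower ones without overlap, the log2 fold change was -1.17 (standard error 0.36, adjusted p 0.9999, edgeR), and 254 and 183 counts of Fmr1 remained in the knockouts. Dcx had 330 and 166 CPM in the wild type pair and 456 and 211 CPM in the knockout pair, and the granule neuron factor Prox1 had 481 to 951 CPM. Transcripts of other cell types were present in all 4 libraries. None of 10 astrocyte markers was at 0 counts, and their summed level was 10071 to 11164 CPM in the wild type pair and 8638 to 11373 CPM in the knockout pair. The 6 oligodendrocyte markers summed to 1716 and 10309 CPM in the wild type pair and to 3613 and 9384 CPM in the knockout pair. The 7 endothelial markers summed to 19.5 to 74.4 CPM, and of the 7, 1 was higher (Pecam1) and 1 lower (Cldn5) in both knockout than in both wild type libraries. Cldn5, a tight junction protein, had 1.53 and 6.62 CPM in the wild type pair and 0 and 0.162 CPM in the knockout pair, and Pecam1, an endothelial adhesion protein, had 0 and 2.02 CPM and 2.56 and 8.43 CPM. Of 5 choroid plexus markers 4 were at 0 counts in every library, Ttr among them.

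Of the 57 genes, 44 had at least 1 count and 13 had 0 counts in all 4 libraries. A filter on low counts kept 37 (64.9%) for testing, and 7 of the 37 (Fzd6, Lef1, Tcf7, Tcf7l1, Wnt8b, Wnt9a and Sfrp4) had 10 counts or more in both libraries of 1 genotype alone. Of these 37, edgeR's quasi-likelihood test, adjusted over all 14673 genes tested, called 0 higher and 0 lower in knockout than in wild type, with a smallest adjusted p of 0.9999. The share called over all genes was 0.0%. At an unadjusted p under 0.05, 0 of the 37 were higher, beside 0.47% of all genes tested, and 1 was lower (Fzd6), beside 0.579%. In either direction this was 2.70% of the 37 beside 1.05% of all genes. DESeq2 called 0 members and 0 genes in all, and gave an unadjusted p under 0.05 for 1 member (2.70%, beside 1.68% of all genes). With limma voom 0 members and 0 genes in all were called, and 0 members had such a p, beside 0.593% of all genes.

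Because read counts grow with transcript length, levels were compared between genes as TPM, which divides counts by the deposited gene lengths before scaling to library size. By mean TPM over the 4 libraries the order was led by Ctnnb1, the beta-catenin gene, at 238, followed by Dkk3 at 105.0, Gsk3a at 104.8, Gsk3b at 63.9, Porcn at 55.4 and Dvl1 at 46.8. The first of these stood apart, with 227 to 254 TPM in each library. Dkk3 and Gsk3a overlapped, with ranges of 53.3 to 178 and 83.8 to 153 TPM. Among the 57 genes, 22 had a mean over 10 TPM and 19 had a mean under 1 TPM.

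**Figure D1:**
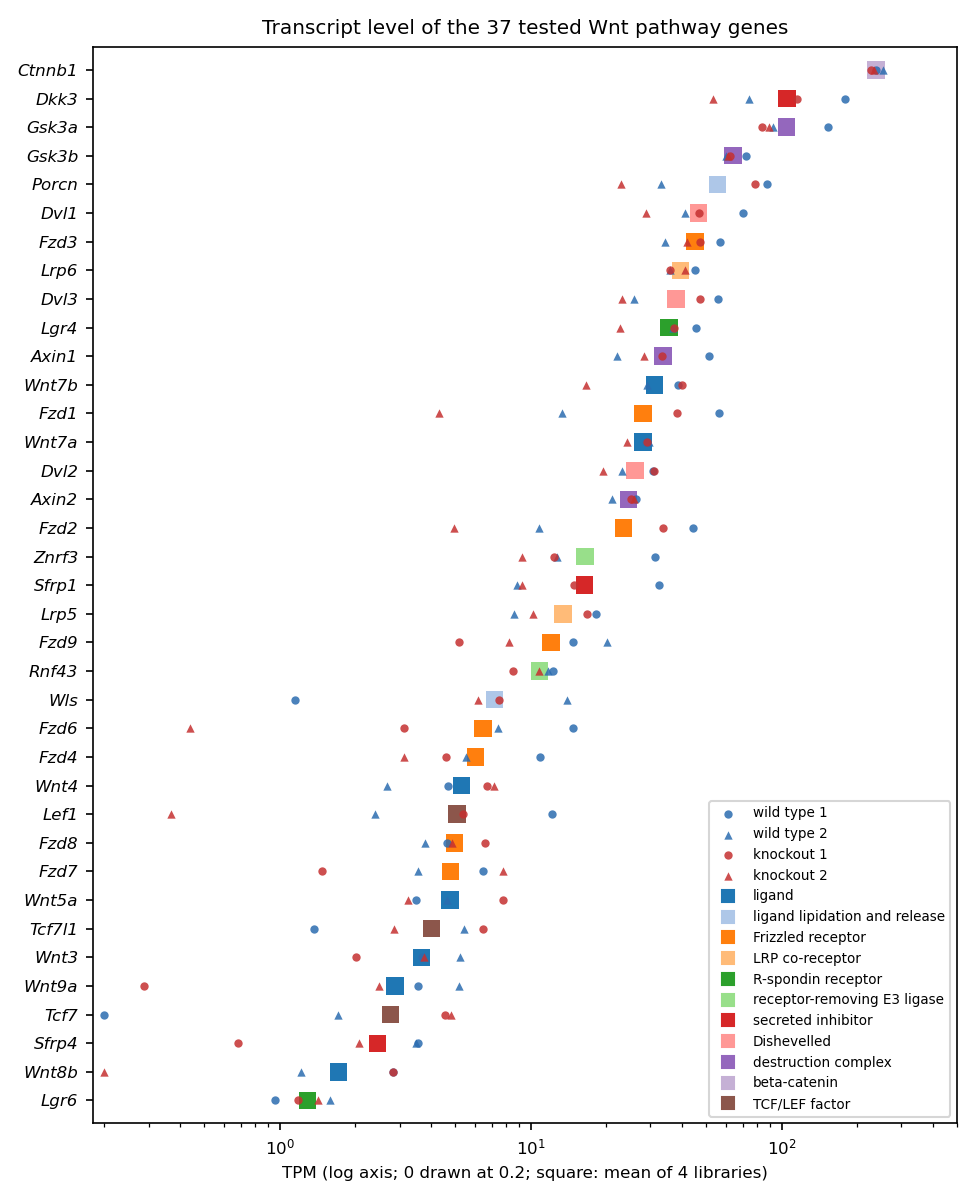
Level of each of the 37 tested Wnt pathway genes in TPM (horizontal log axis), ordered by mean. Circles and triangles are replicate 1 and 2 libraries, blue is wild type and red is knockout, and the square is the mean coloured by role. Ctnnb1 is at 227 to 254 TPM in every library, and the circles lie to the right of the triangles for Fzd1, Fzd2 and Porcn. TPM and CPM are scaled differently between libraries, so circles against triangles can differ from the CPM order. Gsk3b is lower in both replicate 2 libraries by TPM but higher in both by CPM, and Ctnnb1 is higher there by CPM (353 and 423 against 506 and 541).

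Among the 19 ligand genes, Wnt7a and Wnt7b supplied most of the ligand transcripts. Together they made up 75.8% and 75.5% of ligand TPM in the wild type pair and 74.6% and 69.4% in the knockout pair. Wnt7a and Wnt7b are closely related ligands that, in the mouse brain, are also known for signalling to the vasculature. Wnt7b had 48.7 and 49.4 CPM in the wild type pair and 63.5 and 32.7 CPM in the knockout pair. The knockout values lay to either side of the wild type values, and the log2 fold change was -0.03 (standard error 0.42). Wnt7a had 26.1 and 36.1 CPM in the wild type pair and 33.1 and 34.5 CPM in the knockout pair, again with overlapping genotypes.

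A further 5 ligand genes passed the filter at lower levels. Wnt4, a ligand needed for kidney development in mice (chromosome 4, 137277489 to 137299726, GRCm38) had 5.59 and 4.32 CPM in the wild type pair and 10.1 and 13.4 CPM in the knockout pair. The knockout values were both the higher, the log2 fold change was 1.24 (standard error 0.75), and its unadjusted p was 0.142 in edgeR, the smallest on the higher side of the list. Wnt5a, a ligand best known for signalling without beta-catenin, had 7.80 and 14.0 CPM in the wild type pair and 21.7 and 11.3 CPM in the knockout pair, which overlap, and its log2 fold change was 0.60 (standard error 0.65). Wnt3, a ligand made by hippocampal astrocytes in rodents, had 3.22 and 6.19 CPM in the wild type pair and 2.22 and 5.18 CPM in the knockout pair. Wnt9a had 3.39 and 6.62 CPM in the wild type pair and 0.342 and 3.73 CPM in the knockout pair. Wnt8b had between 1.58 and 3.42 CPM in 3 libraries and 0 counts in knockout replicate 2. The genotypes overlapped for these last 3 genes.

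The other 12 ligand genes did not pass the filter. Wnt16 had 8 and 30 counts in the replicate 1 libraries and 0 in both replicate 2 libraries. Wnt5b had 10 and 4 counts in the replicate 1 libraries and 0 in the others, Wnt10a had 9 counts in knockout replicate 2 alone, and Wnt10b had 1 count in all. Wnt1, Wnt2, Wnt2b, Wnt3a, Wnt6, Wnt8a, Wnt9b and Wnt11 had 0 counts in every library. A count of 0 allows up to 3 counts, which is 0.432 to 0.512 CPM in a single library and 0.121 CPM over all 4, a limit that covers counting error only.

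Several ligand genes lie close to each other in the mouse genome, at most 24328 bases apart, and in 3 of 4 such pairs just 1 member had more than 1 count. Of all 19 ligand genes 8 had 0 counts and a further one, Wnt10b, had 1 count. Whether neighbours differ from other ligand genes in this was not tested. Wnt9b and Wnt3 stand head to head on chromosome 11, at 103727364 to 103749821 and 103774150 to 103817957 (GRCm38), with 24328 bases between them. Over the 4 libraries Wnt3 had 107 counts and Wnt9b had 0. Wnt3a and Wnt9a, also head to head on chromosome 11 with 16175 bases between them, had 0 and 91 counts. Wnt6 and Wnt10a on chromosome 1 had 0 and 9 counts, all 9 in knockout replicate 2. Wnt10b and Wnt1 on chromosome 15 had 1 and 0.

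Ligand release was represented by Porcn and Wls. Porcn, the acyltransferase that attaches the lipid to Wnt proteins, had 74.9 and 38.0 CPM in the wild type pair and 83.9 and 30.9 CPM in the knockout pair, with replicate 1 the higher in each genotype. Its log2 fold change between genotypes was 0.02 with a standard error of 0.55. Wls, the carrier that takes Wnt proteins to the cell surface, had 2.88 and 47.2 CPM in the wild type pair and 23.6 and 24.3 CPM in the knockout pair. Wild type replicate 1 stood far below the other 3 libraries with 17 counts. The knockout library was thus the higher one in replicate 1 and the lower one in replicate 2 (log2 differences 2.90 and -0.95).

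All 10 Frizzled receptor genes were counted and 8 were tested. Fzd3, a receptor known for its part in axon growth and planar cell polarity, was the most abundant by mean TPM, with 27.1% and 34.5% of Frizzled TPM in wild type and 33.7% and 54.7% in knockout libraries. It had 208 and 168 CPM in the wild type pair and 216 and 241 CPM in the knockout pair. The genotypes were apart by a small margin, knockout the higher, and the log2 fold change was 0.28 (standard error 0.28).

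Fzd6 (ENSMUSG00000022297.14, chromosome 15, 39006034 to 39038188, GRCm38), another receptor of planar cell polarity, was the gene of the list with the smallest unadjusted p. It had 17.5 and 11.8 CPM in the wild type pair and 4.61 and 0.810 CPM in the knockout pair, the latter from 27 and 5 counts. The 2 genotypes did not overlap. The log2 fold change was -2.43 (standard error 0.99), and the unadjusted p of 0.0452 became an adjusted p of 0.9999 in edgeR's quasi-likelihood test. It passed the count filter through the wild type libraries. With a single library left out, its unadjusted p ran from 0.0759 to 0.209 in 3 of 4 fits and was 0.00356 without knockout replicate 1 (edgeR). A noncoding gene on the other strand shares 152 exon bases with it and had 0 to 5 counts.

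Fzd9 and Fzd4 were also lower in both knockout than in both wild type libraries without being called. Fzd9 had 9.66 and 17.7 CPM in the wild type pair and 4.27 and 8.43 CPM in the knockout pair, a log2 fold change of -1.11 (standard error 0.75). Fzd4, the receptor of brain and retinal vessels that also binds the ligand norrin, had 20.9 and 14.3 CPM in the wild type pair and 11.1 and 9.40 CPM in the knockout pair, a log2 fold change of -0.77 (standard error 0.58). The summed level of 7 endothelial markers was 22.04 and 74.4 CPM in the wild type pair and 19.5 and 42.6 CPM in the knockout pair. That of 5 mural cell markers was 101 and 124 against 79.4 and 40.2 CPM. Of these 5 mural markers, 1 was lower (Rgs5) and 0 were higher in both knockout than in both wild type libraries. The genotypes overlapped for Pdgfrb, with 71.7 and 35.9 CPM in the wild type pair and 57.7 and 14.7 CPM in the knockout pair. The part of endothelial and mural cells in the Fzd4 and Fzd6 values was not tested. In sorted bulk cells, fewer cells of a type and less RNA per cell cannot be told apart. Fzd8 had 4.41 and 4.90 CPM in the wild type pair and 7.86 and 7.29 CPM in the knockout pair. Fzd7 ran from 2.39 CPM in knockout replicate 1 to 15.7 CPM in knockout replicate 2, with the wild type libraries between them. Fzd5 and Fzd10 had at most 23 and 2 counts in any library and were not tested.

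Fzd1 and Fzd2 differed far more between replicate numbers than between genotypes. Fzd1, reported to act in adult hippocampal neurogenesis in mice, had 67.5 and 57.4 CPM in the wild type and knockout libraries of replicate 1 and 21.6 and 8.10 CPM in those of replicate 2. Fzd2 had 46.5 and 44.1 CPM in the replicate 1 libraries and 15.3 and 8.10 CPM in the replicate 2 libraries. The replicate 1 value was 3.12 and 7.08 times the replicate 2 value for Fzd1, and 3.04 and 5.44 times for Fzd2, in wild type and knockout respectively. Together they made up 47.9% and 51.3% of Frizzled TPM in the replicate 1 libraries of wild type and knockout and 24.4% and 12.02% in the replicate 2 libraries. Their log2 fold changes between genotypes, -0.44 for Fzd1 and -0.24 for Fzd2, were smaller than their standard errors of 0.90 and 0.85.

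The co-receptors Lrp5 and Lrp6, which bind Wnt together with a Frizzled, were both measured at many counts. Lrp6 had 176 and 189 CPM in the wild type pair and 177 and 253 CPM in the knockout pair, a log2 fold change of 0.23 (standard error 0.30). Lrp5 had 50.5 and 32.1 CPM in the wild type pair and 58.4 and 44.7 CPM in the knockout pair, and the genotypes overlapped for both.

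R-spondin receptors bind secreted proteins that raise Wnt sensitivity, and the E3 ligases Znrf3 and Rnf43 remove Frizzled from the cell surface. Lgr4 was the main R-spondin receptor, at 60.1 to 83.4 CPM in the 4 libraries, with a log2 fold change of -0.20 and a standard error of 0.31. Lgr6 lay at 1.86 to 4.37 CPM. Lgr5, an intestinal stem cell marker, had 41 counts in knockout replicate 1, 7 in wild type replicate 2 and 0 in the other 2 libraries. Znrf3 had 70.7 and 38.6 CPM in the wild type pair and 35.0 and 32.7 CPM in the knockout pair. Wild type replicate 1 stood well above the other 3 libraries, the genotypes did not overlap, and the log2 fold change was -0.69 (standard error 0.42, unadjusted p 0.142, edgeR). Rnf43 had 20.0 to 31.8 CPM, with overlapping genotypes.

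Among secreted inhibitors, Dkk3 made up 82.5% to 88.0% of the group's TPM in each library. Dkk3 is a divergent member of the Dickkopf family whose effect on Wnt signalling is less clear than that of Dkk1. It had 171 and 95.5 CPM in the wild type pair and 138 and 80.4 CPM in the knockout pair, higher in both replicate 1 libraries, and its log2 fold change was -0.29 (standard error 0.41). Sfrp1, a decoy that binds Wnt ligands, had 40.5 and 14.8 CPM in the wild type pair and 23.4 and 18.1 CPM in the knockout pair. Sfrp4 had 4.24 and 5.62 CPM in the wild type pair and 1.02 and 3.89 CPM in the knockout pair. The genotypes overlapped for Sfrp1, and Sfrp4 was lower in both knockout libraries on at most 39 counts. Dkk1, Dkk2, Dkk4, Sfrp2 and Sfrp5 had 0 counts everywhere. Frzb, which encodes the related decoy sFRP3 and lies outside the gene symbols used, had 29.0 and 39.9 CPM in the wild type pair and 49.2 and 53.8 CPM in the knockout pair. On the TPM scale Frzb lay at 31.4 to 42.4, below Dkk3 in every library and above Sfrp1 in 3 of them.

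Dishevelled proteins relay the signal from Frizzled, and all 3 genes were expressed. Dvl1 had 100.2 and 79.5 CPM in the wild type pair and 83.5 and 64.3 CPM in the knockout pair, a log2 fold change of -0.28 (standard error 0.31). Dvl3 lay at 77.8 and 48.5 CPM in the wild type pair and 83.4 and 50.7 CPM in the knockout pair, higher in replicate 1 of both genotypes. Dvl2 lay at 54.6 to 70.2 CPM, but it shares 1151 exon bases with Acadvl on the opposite strand, a gene with 326 to 618 counts. The libraries were strand specific per the labels, but whether the counting used strand is not stated. The same holds for the 759 exon bases that Ctnnb1 shares with Ulk4 (36 to 70 counts) and the 324 that Wnt7b shares with AU022754 (8 to 63 counts).

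The 4 destruction complex genes had log2 fold changes from -0.18 to 0.41, none of them called. Gsk3b had 203 and 226 CPM in the wild type pair and 219 and 271 CPM in the knockout pair, which overlap, with a log2 fold change of 0.19 and a standard error of 0.27. Gsk3a, the second GSK3 gene, had 127 and 103 CPM in the wild type pair and 87.1 and 116 CPM in the knockout pair, a log2 fold change of -0.18 (standard error 0.31), and shares 820 exon bases with a noncoding gene on the opposite strand that had 58 to 137 counts. Axin1, the constitutive scaffold, ran from 32.5 to 55.9 CPM. Ctnnb1 itself had 353 and 506 CPM in the wild type pair and 423 and 541 CPM in the knockout pair. The replicate 2 libraries were the higher ones in both genotypes, and the log2 fold change was 0.17 (standard error 0.30).

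Axin2 is the feedback scaffold that beta-catenin induces and a common readout of Wnt activity. It had 41.2 and 44.5 CPM in the wild type pair and 49.7 and 64.0 CPM in the knockout pair. The knockout values were both the higher, and the log2 fold change was 0.41 (standard error 0.34, unadjusted p 0.271, edgeR). Dkk1, a further gene that beta-catenin is known to induce, was at 0 counts throughout. Promoters from the 250 bases before to the 50 bases after the start of transcription are shown for both of these targets and for Gsk3a. Of the 23 tested genes with a searched window, Gsk3a alone held the core TCF/LEF motif in it. The windows are from RefSeq on GRCm38.p6, read 5′ to 3′ on the gene's strand, with capitals for the motif, searched as CTTTGAA and CTTTGAT and their reverse complements TTCAAAG and ATCAAAG, with overlapping matches each counted. They lie at chr11:108920099-108920398 (plus strand) for Axin2, chr19:30549447-30549746 (minus strand) for Dkk1 and chr7:25237802-25238101 (minus strand) for Gsk3a.
Axin2: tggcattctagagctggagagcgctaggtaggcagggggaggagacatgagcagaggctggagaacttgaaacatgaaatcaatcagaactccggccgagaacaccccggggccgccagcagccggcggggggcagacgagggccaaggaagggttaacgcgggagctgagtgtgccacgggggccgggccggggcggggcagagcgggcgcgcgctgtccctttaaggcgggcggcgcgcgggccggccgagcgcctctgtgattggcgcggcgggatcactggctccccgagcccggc
Dkk1: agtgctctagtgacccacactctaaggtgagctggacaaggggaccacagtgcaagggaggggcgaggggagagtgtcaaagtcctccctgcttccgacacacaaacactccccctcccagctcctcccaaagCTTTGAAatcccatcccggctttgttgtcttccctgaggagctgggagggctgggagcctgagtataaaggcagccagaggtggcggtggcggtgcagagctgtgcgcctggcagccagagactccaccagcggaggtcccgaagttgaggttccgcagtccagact
Gsk3a: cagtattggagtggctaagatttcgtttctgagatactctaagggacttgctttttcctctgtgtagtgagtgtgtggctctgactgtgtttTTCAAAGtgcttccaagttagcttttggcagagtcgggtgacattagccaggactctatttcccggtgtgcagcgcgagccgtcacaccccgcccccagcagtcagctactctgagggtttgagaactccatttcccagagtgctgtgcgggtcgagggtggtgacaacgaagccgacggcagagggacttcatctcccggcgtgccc
With the start base at 0, the match begins at -117 in Dkk1 and at -158 in Gsk3a. The Axin2 window held no match to these letters, which says nothing about sites elsewhere. Windows were searched for 39 of the 57 genes, some with several starts. Any windows of the tested gene Fzd8 and of Wnt8a were left out of this search. A motif was present in 4 of 48 searched windows (8.33%), and in 8.65% of the 32851 windows of all genes. The windows of all genes may lack this exclusion, so the shares and the medians below may rest on unlike sets. The windows of the Wnt pathway genes were rich in CpG dinucleotides, with a median of 24 per window beside 7 over all windows.

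The 3 TCF/LEF genes of the list had the lowest summed level of all roles in every library, with 8.04 to 16.3 TPM together. Tcf7l2, a further gene of this family, lies outside the gene symbols used, so this is not the level of the family. Lef1 (chromosome 3, 131110471 to 131224356, GRCm38) had 30.5 and 8.06 CPM in the wild type pair and 16.9 and 1.46 CPM in the knockout pair. As with Fzd1 and Fzd2, the replicate 1 libraries were higher in both genotypes, 3.78 times the replicate 2 value in wild type and 11.6 times in knockout. The log2 fold change between genotypes was -1.07 with a standard error of 1.13. Tcf7 had 0 and 12 counts in wild type and 25 and 35 counts in knockout libraries, that is 0, 1.73, 4.27 and 5.67 CPM. The knockout values were both the higher, with a log2 fold change of 2.48 and a standard error of 1.87, on few counts, and the gene passed the count filter through the knockout libraries. Tcf7l1 ran from 1.53 CPM in wild type replicate 1 to 9.05 CPM in knockout replicate 1, with overlapping genotypes.

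**Figure D2:**
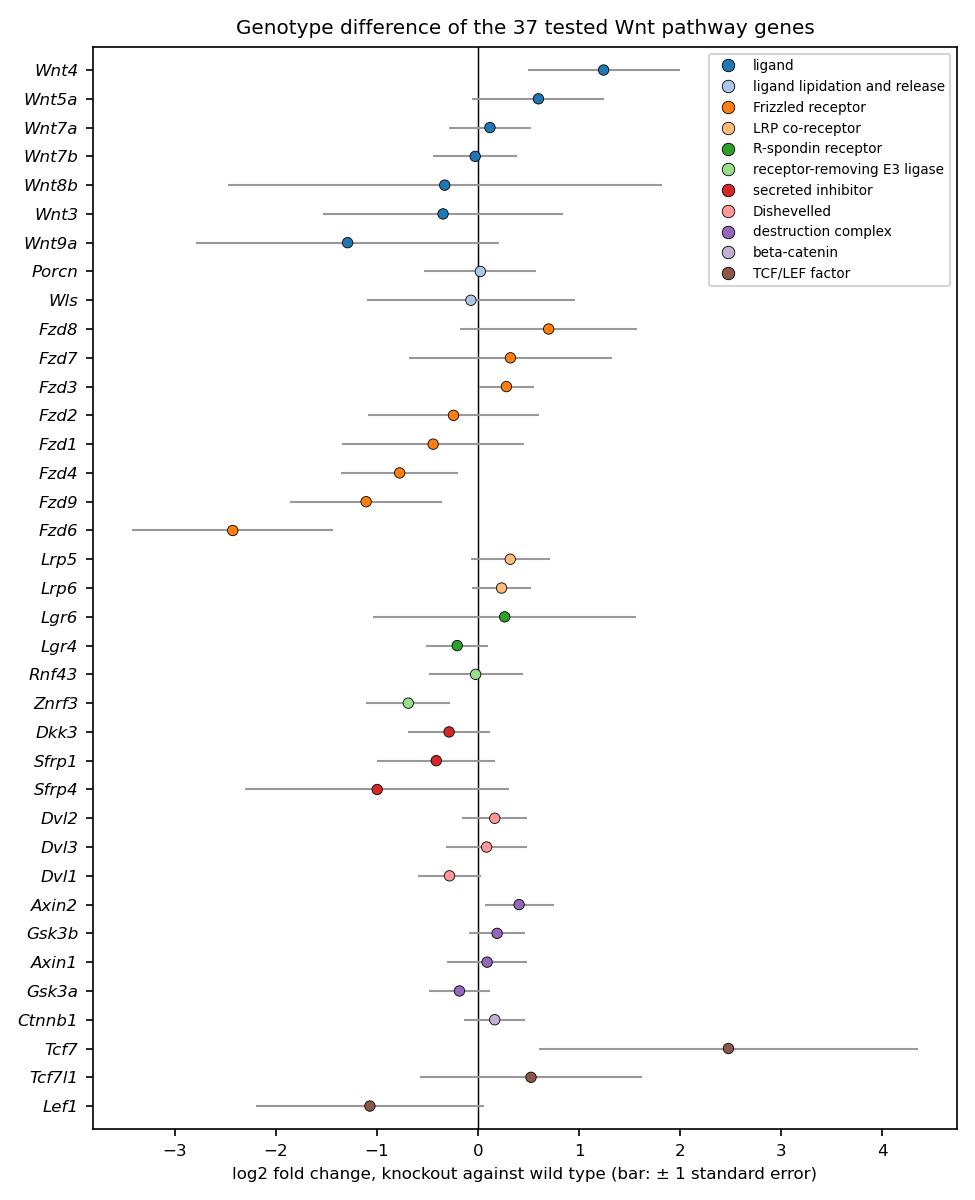
Log2 fold change of each of the 37 tested genes between knockout and wild type libraries (horizontal axis), with bars of 1 standard error, grouped and coloured by role. Points above 0 number 18 and points below 0 number 19, and the widest bar belongs to Wnt8b.

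Over the 37 tested genes, 18 had estimates above 0 and 19 below, and the median log2 fold change was -0.02 beside 0.02 over all genes tested. Knockout values both exceeded the wild type values for 5 genes (Wnt4, Fzd3, Fzd8, Axin2 and Tcf7), or 13.5% beside 11.8% of all genes tested. They were both lower for 5 genes (Fzd4, Fzd6, Fzd9, Znrf3 and Sfrp4), or 13.5% beside 13.7% of all genes. Both shares were near the background. Standard errors of the log2 fold change ran from 0.27 for Gsk3b to 2.15 for Wnt8b, with a median of 0.58.

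The replicate number separated 19 of the 37 genes without overlap and the genotype 10. Both replicate 2 libraries lay above both replicate 1 libraries for 9 of the 37 genes (24.3%, beside 26.0% of all genes tested) and below them for 10 (27.0%, beside 25.9%). Both shares were near the background. Those lower in both replicate 2 libraries were Fzd1, Fzd2, Lef1, Wnt8b, Porcn, Dkk3, Sfrp1, Dvl1, Dvl3 and Lrp5. Those higher were Ctnnb1, Gsk3b, Lrp6, Rnf43, Wnt3, Wnt7a, Wnt9a, Wls and Lgr6. The median absolute log2 difference between the replicate numbers was 0.52 over the 37 genes and 0.50 over all genes tested. The labels do not say what the numbers stand for.

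**Figure D3:**
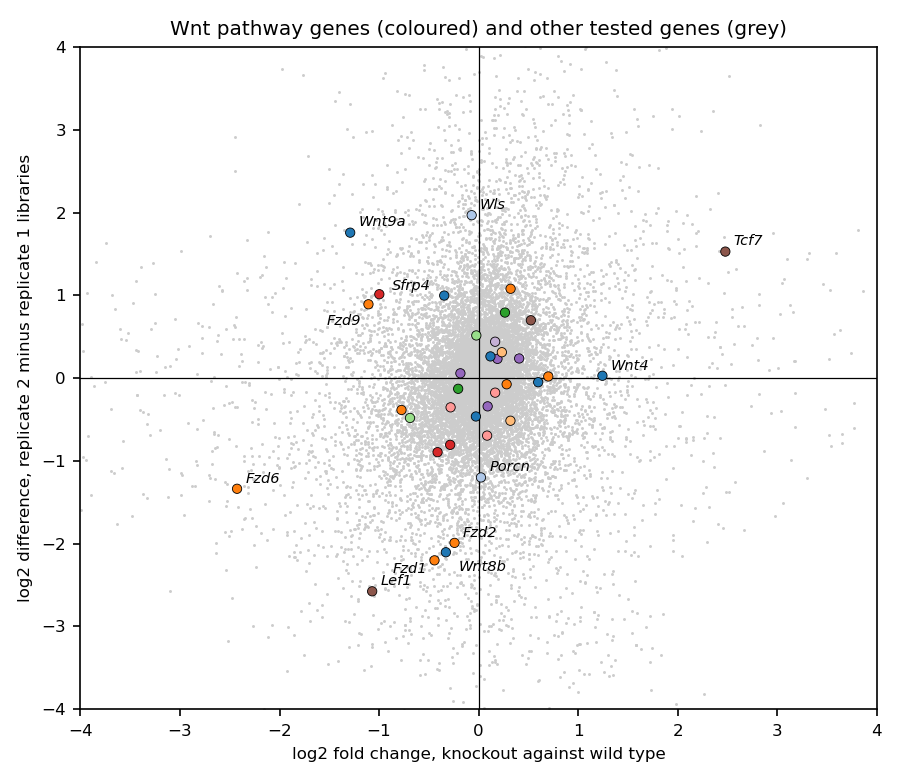
Each point is a tested gene, with its log2 fold change between genotypes (horizontal) and its mean log2 difference between replicate 2 and replicate 1 libraries (vertical), the 37 Wnt pathway genes coloured by role. Fzd1, Fzd2, Wnt8b and Lef1 lie low near or left of the centre line, and 169 other genes beyond 4 on either axis are not drawn.

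Cell type markers moved with the replicate number too. All 5 markers of oligodendrocyte precursors and all 6 of oligodendrocytes were higher in both replicate 2 libraries, and 9 of 11 markers of neuroblasts and immature neurons were lower in both. The precursor markers summed to 329 and 416 CPM in the replicate 1 libraries of wild type and knockout and to 2531 and 3159 CPM in those of replicate 2. The neuroblast markers summed to 3322 and 3786 CPM in replicate 1 and to 1857 and 2003 CPM in replicate 2. Of 9 stem and progenitor markers 6 were lower in both replicate 2 libraries, and 1 was higher (Sox2). Mki67, a gene of dividing cells, had 103 and 149 CPM in replicate 1 and 43.9 and 36.3 CPM in replicate 2, whereas Sox2, a stem cell factor, had 74.9 and 106 CPM in replicate 1 and 125 and 172 CPM in replicate 2. Of 10 astrocyte markers 6 were lower and 2 higher in both replicate 2 libraries, and of 5 mural cell markers 1 was lower (Pdgfrb) and 2 higher. Higher and lower in both replicate 2 libraries were 4 and 0 of 6 interneuron, 4 and 0 of 8 microglial and 2 and 0 of 7 endothelial markers. Of 6 mature granule neuron markers 2 were higher and 2 lower. Their sum was 1914 and 1934 CPM in replicate 1 and 2957 and 4213 CPM in replicate 2. The part of cell type in the Fzd1, Fzd2 and Lef1 values was not tested.

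**Figure D4:**
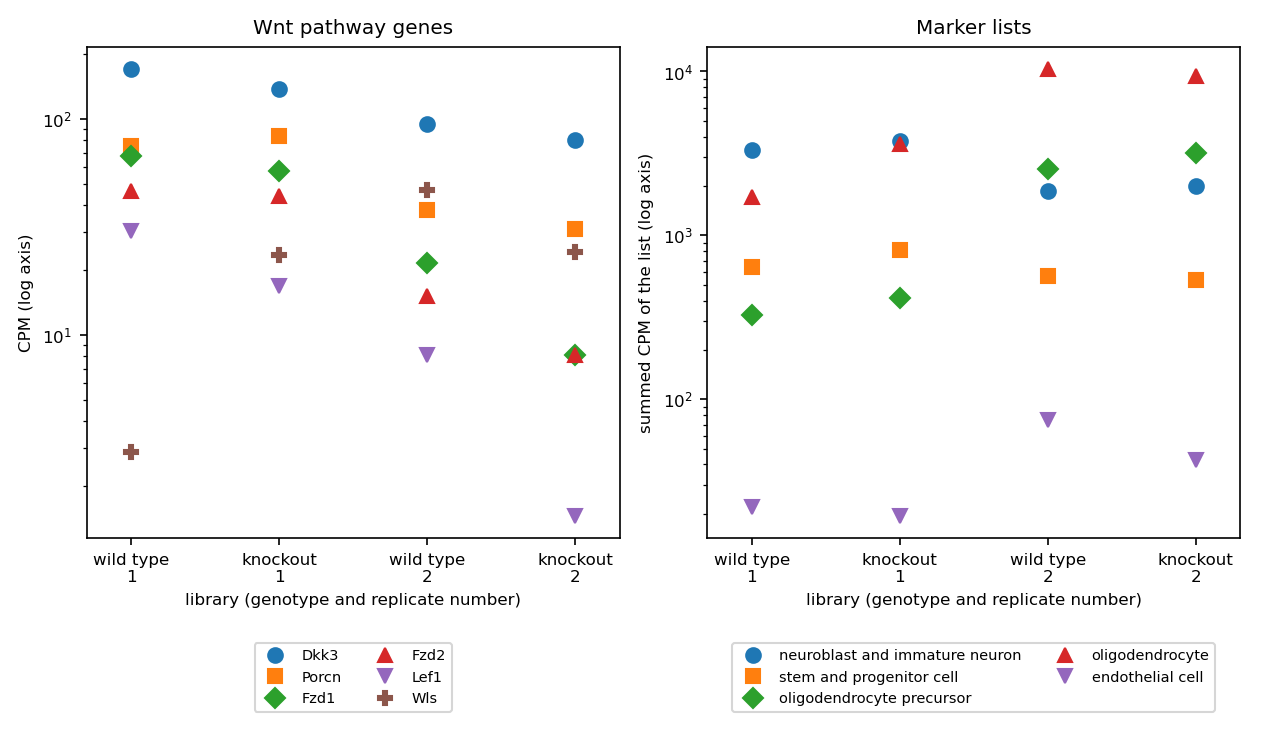
Left, CPM (log axis) of 6 Wnt pathway genes in each library, and right, summed CPM (log axis) of 5 marker lists, with the replicate 1 libraries first. Fzd1, Fzd2, Lef1, Porcn and Dkk3 are lower in both replicate 2 libraries, as is the neuroblast list, while both oligodendrocyte lists are higher there.

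Further genes tied to Wnt signalling were also not called. Of 95 such genes present in the deposited counts, 84 were tested, and edgeR called 0 higher and 0 lower, with 48 estimates above 0 and 36 below. The share above 0 was 57.1%, beside 51.6% of all genes tested. At an unadjusted p under 0.05 there was 1 gene (Cd44), or 1.19% of the 84 beside 1.05% of all genes. The tested counts were 18 genes of beta-catenin degradation, 6 secreted modulators, 13 membrane partners, 14 genes of planar cell polarity, 18 nuclear co-factors and 15 reported targets or feedback genes, with 0 called in each. Cd44, an adhesion receptor reported as a Wnt target in the gut, had 9.32 and 3.60 CPM in the wild type pair and 0.171 and 0.486 CPM (1 and 3 counts) in the knockout pair, a log2 fold change of -4.21 (standard error 1.56, unadjusted p 0.0314, adjusted p 0.9999, edgeR). Cd44 passed the count filter through the wild type libraries. Bambi, which antagonises TGF-beta and BMP receptors, had 20.5 and 12.7 CPM in the wild type pair and 11.3 and 3.24 CPM in the knockout pair, a log2 fold change of -1.19 (standard error 0.79).

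Among nuclear co-factors, the Groucho-type co-repressor Tle3 had 79.9 and 72.4 CPM in the wild type pair and 121 and 105.0 CPM in the knockout pair, a log2 fold change of 0.57 (standard error 0.29). The co-repressor Ctbp1 had 124.1 and 123.4 CPM in the wild type pair and 172 and 168 CPM in the knockout pair, a log2 fold change of 0.46 (standard error 0.26). Knockout lay above wild type without overlap in both, and neither was called. In planar cell polarity, the scaffold Scrib had 63.7 and 47.2 CPM in the wild type pair and 81.6 and 82.0 CPM in the knockout pair. Daam2, a formin that binds Dishevelled, had 352 and 323 CPM in the wild type pair and 294 and 166 CPM in the knockout pair. These fold changes were 0.56 for Scrib and -0.55 for Daam2 on the log2 scale, with standard errors of 0.32 and 0.34. Frzb, whose levels are given above, had a log2 fold change of 0.58 (standard error 0.37), and Notum, an enzyme that removes the lipid from Wnt proteins, had 38 and 17 counts in the wild type pair and 9 and 0 in the knockout pair. The fitted log2 fold change of Notum was -2.51 (standard error 1.99), on few counts. Caprin2 and Tpbg were the membrane partners with the smallest unadjusted p, at 0.262 and 0.504 in edgeR, and had log2 fold changes of 0.54 (standard error 0.44) and 0.84 (standard error 1.196). For beta-catenin degradation these were Ppp2r5d, a phosphatase subunit, with a log2 fold change of -0.44 (standard error 0.32), and Usp7, a deubiquitinase, with 0.33 (standard error 0.29).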

How the data were processed

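The authors deposited raw counts per gene, 1 column per library, with the length of each gene in bases, a value of other kind used here only for TPM. Per the submitters' processing notes, reads were aligned by STAR 2.5.3a against GRCm38. The annotation was Gencode and the libraries poly(A) selected and strand specific, per the labels' protocols. Which release and counter were used, with what strand setting, and how length was measured is not given in the sources used here. The table holds 0 further columns of per-sample values.

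Genes were filtered with filterByExpr (minimum count 10), which kept 14673, scaled by TMM and tested in edgeR 4.0.16 (R 4.3.3) with robust quasi-likelihood F-tests, two-sided, genotype as the only term, and Benjamini-Hochberg adjustment over all tested genes at 0.05. The fit was checked on counts simulated with less spread between libraries than in these data. That check does not show which differences could be found at the spread seen here. CPM is TMM-scaled, TPM is over all genes, and positions are from GENCODE M21. Replicates of a genotype differed beyond counting noise (chi-square per degree of freedom 41.6 and 58.0).

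The members, roles, lists and tests were chosen with earlier results of these data known. Fold changes with errors were given for the most abundant tested gene of each role and the 5 smallest p values in each direction, for the 2 smallest p values of each further list, and for Fmr1. Fzd1, Fzd2 and Gsk3b were added after their values were seen. Alternatives used DESeq2 1.42.0, limma 3.58.1 voom, RLE and library-size scaling, other filters, protein-coding genes alone, non-robust fits, an adjusted p under 0.1, the replicate number as a block, and leaving out each library on the same genes.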

Additional observations from a re-analysis of the deposited data

How the results depend on the processing

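No Wnt pathway gene and no further Wnt-related gene was called under any of the 13 alternative fits or at an adjusted p under 0.1, and the median log2 fold change of the tested Wnt pathway genes lay between -0.06 and 0.11 in them, beside -0.02 as reported. With the replicate number as a block edgeR called 10 genes in the whole table, beside 0 without it, and the smallest adjusted p of a Wnt pathway gene was 0.451. Fzd6, Lef1 and Fzd1 then had an unadjusted p under 0.05 (8.11% of the 37, beside 5.30% of all genes), as did these and Fzd2 without knockout replicate 1 (10.8%, beside 6.45%), all on the lower side. Of the further Wnt-related genes given with a fold change, Daam2 and Bambi (lower) and Tle3, Ctbp1 and Scrib (higher) also had an unadjusted p under 0.05 with the block (edgeR). A share over that whole list is not given here. Deviations from the genotype means correlated at 0.364 between the replicate 1 libraries across genes. With 2 numbers and no label behind them this does not show a pairing.

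Of 30 genes given with a planned fold change 23 kept their direction in every alternative fit that held them. Tcf7, Cd44 and Notum had no value at a minimum count of 30. Porcn turned to -0.026 (log2) with library-size scaling, -0.056 with limma voom and -0.061 with the replicate block. With a library left out, fold changes ran from -0.87 to 0.59 for Porcn, -0.071 to 0.43 for Ctnnb1, -0.73 to 0.19 for Dkk3, -3.71 to 0.19 for Lef1, -0.41 to 0.0084 for Gsk3a, -0.059 to 0.47 for Lrp6 and -0.58 to 0.36 for Wnt7b. None of these genes was called in any fit, and the cause was not tested. Of the 23 that kept their direction, 18 moved by over 1.5 times without 1 library. Without wild type replicate 1 these were Znrf3 (-0.19, beside -0.69 with all libraries), Fzd4 (-0.48), Dvl1 (-0.10), Fzd3 (0.44), Wnt5a (0.24), Tcf7 (1.51), Usp7 (0.53), Frzb (0.37), Tpbg (0.20) and Notum (-1.65). Without wild type replicate 2 they were Znrf3 (-1.08), Fzd9 (-0.62), Dvl1 (-0.46), Fzd3 (0.12), Wnt5a (1.06), Tcf7 (7.89), Usp7 (0.14), Scrib (0.34) and Tpbg (2.02). Without knockout replicate 1 they were Fzd6 (-4.14), Fzd9 (-0.70), Lgr4 (-0.41), Dvl1 (-0.48), Wnt5a (0.057), Daam2 (-1.02), Bambi (-2.35), Ppp2r5d (-0.67), Usp7 (0.17) and Notum (-7.82). Without knockout replicate 2 they were Axin2 (0.20), Fzd9 (-1.69), Lgr4 (-0.035), Dvl1 (-0.12), Wnt5a (0.98), Daam2 (-0.21), Bambi (-0.57), Ppp2r5d (-0.26) and Notum (-1.53). The values of 7.89 for Tcf7 and -7.82 for Notum rest on a lone library at 0 counts and depend on the prior count of the fit. In fits without 1 library, the lone library of a genotype was assumed to vary like the other genotype. Having 2 libraries per genotype limits all comparisons. The reported fit held 37 Wnt pathway genes, and the fit with no count filter held all 44 with a count.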
